A study of Mus musculus with 56 samples.

Results

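Slc2a1, Slc2a3, Slc16a1 and Slc16a3 encode the facilitative glucose carriers GLUT1 and GLUT3 and the monocarboxylate carriers MCT1 and MCT4. The members were taken by symbol, 4 of the 19791 gene symbols of experiment 1 and 4 of the 24421 of experiment 2. RNA of spleen CD4 T cells of C57BL/6 mice was sequenced from the 3' end, with molecular identifiers, in 56 libraries of 19 groups, as 2 count tables that were never joined here. The submitters ask how the number of cells in a culture relates to early memory differentiation. All activated cultures began with naive CD4 T cells and received beads bearing antibodies to CD3 and CD28 and no added cytokine. In experiment 2, the high concentration was 1000000 cells per ml at the start and the low concentration 62500, in 24-well plates, and all CD4 positive cells were sorted at 18, 30, 48 and 72 h. Experiment 2 also holds CD44 positive cells sorted as CD62L positive or CD62L negative at 48 and 72 h from cultures of 250000 cells per ml, and unactivated naive cells (CD44 negative, CD62L positive). Experiment 1 holds CD62L positive and CD62L negative cells at 48 and 72 h, started at 250000 cells per ml in 96-well plates, and unactivated mature (CD44 positive, CD62L negative) and naive cells. Each group has 3 libraries, and the low concentration at 72 h has 2.

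GLUT1 and GLUT3 let glucose down its gradient into the cell, and GLUT3 has the higher affinity for glucose. MCT1 and MCT4 move lactate and pyruvate together with a proton, and MCT4 is the form typical of cells that export much lactate. Resting T cells take up little glucose. Activation through the antigen receptor and CD28 raises GLUT1 at the surface and lactate output, and the transcription factors Myc and HIF-1 are known to raise these genes in activated T cells.

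HIF-1 binds the core letters ACGTG or GCGTG, and Myc binds the E-box CACGTG, so the 250 bases before the annotated start were searched for these on both strands in the 3 members that matched by symbol in RefSeq's table (build GRCm38.p6, all on the plus strand). Slc2a3 had no entry. The sequences show where these letters stand before genes with known Myc and HIF-1 control; capitals mark each match, and CACGTG holds an ACGTG on each strand.
Slc2a1, chr4:119108495-119108744: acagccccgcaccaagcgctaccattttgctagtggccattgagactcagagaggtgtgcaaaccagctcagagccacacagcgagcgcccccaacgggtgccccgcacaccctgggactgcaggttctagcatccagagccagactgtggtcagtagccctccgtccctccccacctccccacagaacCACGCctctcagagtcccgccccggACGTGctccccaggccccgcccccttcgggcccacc
Slc16a1, chr3:104638414-104638663: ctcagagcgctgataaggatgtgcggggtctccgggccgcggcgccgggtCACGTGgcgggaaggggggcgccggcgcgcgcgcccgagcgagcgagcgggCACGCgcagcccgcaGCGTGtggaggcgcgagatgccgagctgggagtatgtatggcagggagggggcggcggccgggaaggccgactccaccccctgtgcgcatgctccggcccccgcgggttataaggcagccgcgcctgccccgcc
Slc16a3, chr11:120948817-120949066: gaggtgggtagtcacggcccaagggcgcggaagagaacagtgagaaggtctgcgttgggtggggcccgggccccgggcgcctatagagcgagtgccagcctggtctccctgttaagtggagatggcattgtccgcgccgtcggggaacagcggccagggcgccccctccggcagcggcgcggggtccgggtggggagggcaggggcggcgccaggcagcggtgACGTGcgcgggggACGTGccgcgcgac
Counted back from the start, the Slc2a1 window holds ACGTG at -36 to -32 and GCGTG, read on the minus strand, at -61 to -57. The Slc16a3 window holds ACGTG at -27 to -23 and at -14 to -10. The Slc16a1 window holds the E-box at -200 to -195 and GCGTG at -149 to -145 and -134 to -130. Of 32851 windows of this length in the table, 16.6% hold ACGTG, 28.2% GCGTG, 6.02% CACGTG and 38.6% either core, while 16.7% hold 2 or more core matches and 2.58% hold 4 or more, as the Slc16a1 window does. Such matches describe the letters only.

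Experiment 1 had library totals of 58750 to 1738555 counts, and experiment 2 had totals of 587118 to 3359875. The shallowest, replicate 1 of the naive cells of experiment 1, had 7, 3, 1 and 4 counts of Slc2a1, Slc2a3, Slc16a1 and Slc16a3. Levels are counts per 1000000 counts of a library after TMM scaling (CPM), and since the libraries were pooled at equal cDNA they are shares of a library's RNA: fewer expressing cells and less RNA per cell cannot be told apart. The CD4 T cell markers Cd3d, Cd3e, Cd3g, Cd4, Cd5 and Cd2 summed to between 1171 and 4694 CPM in every library, and all 6 had counts in every group except the mature cells, where Cd2 was at 0. Red cell markers were at 0 in all of experiment 2, where B cell markers reached at most 14.9 CPM, myeloid markers at most 25.3 CPM, platelet markers at most 5.48 CPM, and CD8 and NK cell markers at most 96.2 CPM. In experiment 2, second numbers in the titles split the libraries, and no label says what they stand for. The naive and 18 h libraries all carry number 1 and the 30 h libraries number 2. At 72 h the high libraries all carry number 1 and the low libraries number 2.

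Differences are log2 values ± SE from edgeR's quasi-likelihood test, and "higher" or "lower" means that the p passed 0.05 after Benjamini-Hochberg adjustment over every gene of the fit. No label gives separate mice or cultures for the libraries of a group, so these p-values measure only the spread between the libraries.

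In the first 18 h of activation, transcripts of GLUT1 and MCT4 increased at both starting concentrations. Slc2a1 had 41.0, 60.4 and 48.5 CPM at the high concentration and 54.0, 36.4 and 44.6 CPM at the low one at 18 h, against 27.8, 17.4 and 21.3 CPM in naive cells. All 6 activated libraries lay above the naive ones. The rise was 1.20 ± 0.22 at the high concentration (adjusted p = 4.94e-06) and 1.06 ± 0.23 at the low one (adjusted p = 8.21e-05), both by edgeR. Slc16a3 had 7.45, 17.9 and 11.0 CPM at the high concentration and 12.4, 10.9 and 14.3 CPM at the low one, against 0.772, 3.11 and 1.59 CPM in naive cells. These are small numbers, 8 to 24 counts per activated library and 1 to 5 per naive library, without overlap. The rise was 2.68 ± 0.54 (adjusted p = 3.92e-05) at the high concentration and 2.67 ± 0.57 (adjusted p = 9.64e-05, edgeR) at the low one.

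Slc2a3 did not pass this test at 18 h. It had 21.4, 20.1 and 24.7 CPM at the high concentration and 17.5, 26.7 and 26.8 CPM at the low one, against 20.8, 14.3 and 13.3 CPM in naive cells. The high and low groups each overlapped the naive group. The differences were 0.47 ± 0.25 and 0.51 ± 0.27 with edgeR's adjusted p = 0.10 and 0.0941; each fell under the threshold without naive replicate 1 (0.67 and 0.72), and the low one also without low replicate 1 (0.75). Thus 2 of the 3 testable members were higher at 18 h at either concentration, where 31.4% of 9239 genes were called higher at the high concentration and 28.7% at the low one.

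After 18 h the courses of the concentrations parted. At 18 h none of the 3 members differed between high and low (edgeR adjusted p = 0.898 to 1; unadjusted p = 0.533 or more), where 1.87% of all genes were called. At 30, 48 and 72 h all 3 members were higher at the high concentration, where 4.63%, 13.9% and 13% of all genes were called higher. The sizes and timing differed between the genes, as given for each in turn.
Some cell type markers moved with concentration too. CD8 and NK cell markers, of which 1 to 3 of 5 had counts in a group, summed to 68.0 to 96.2 CPM at the high and 48.5 to 62.8 CPM at the low concentration at 18 h, and to 31.8 to 38.8 CPM at the high and 14.8 to 15.6 CPM at the low one at 72 h. At 72 h 3 of 6 CD4 T cell markers, 1 of 2 tested CD8 and NK markers and the 1 tested myeloid marker were higher at the high concentration; myeloid markers summed to 1.72 to 9.39 CPM in high and 2.50 to 2.95 CPM in low cultures. Their part in the differences was not tested.

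**Figure D1:**
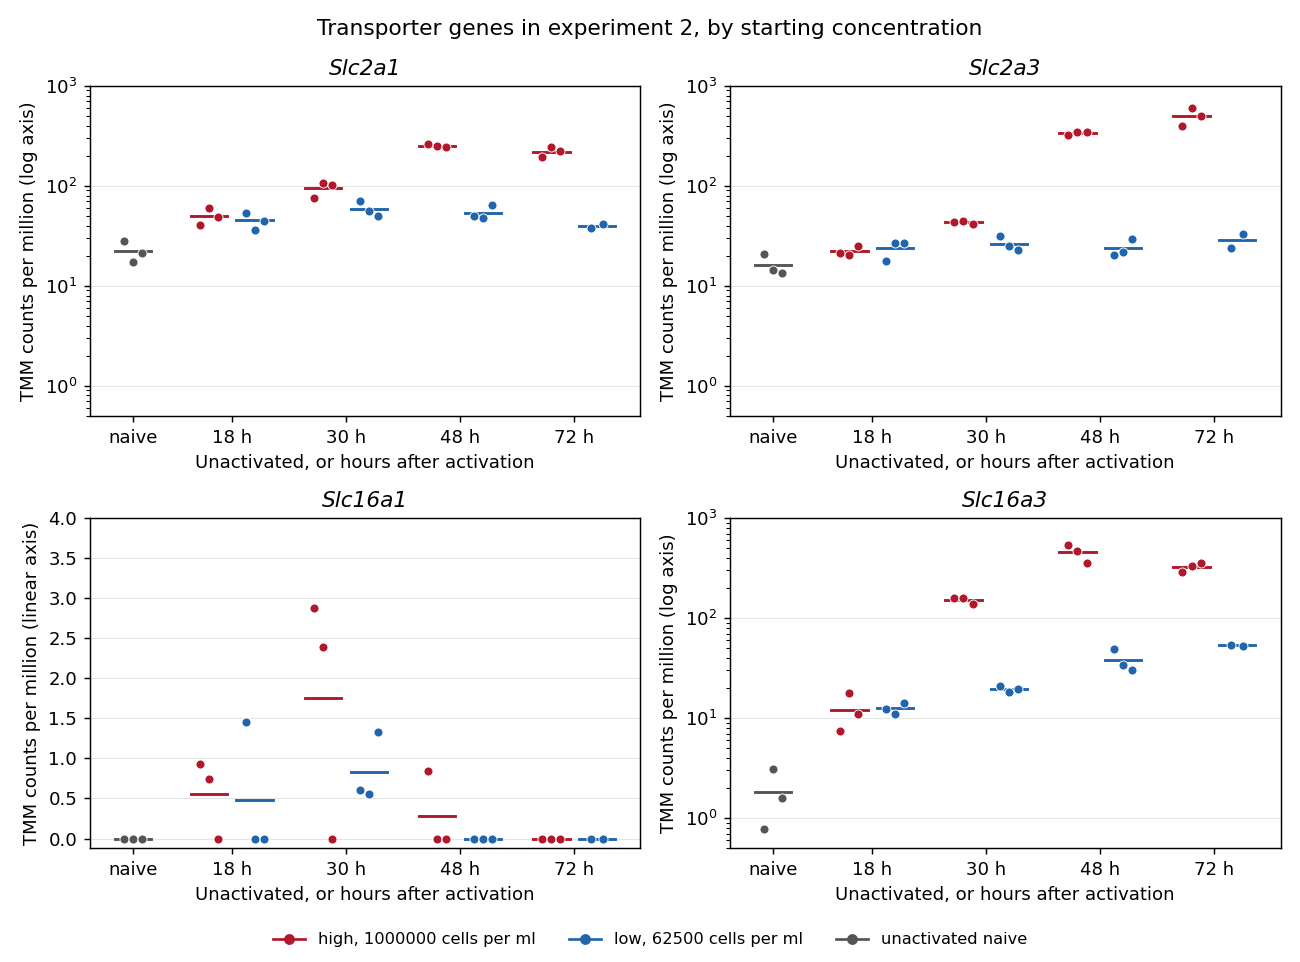
TMM-scaled CPM of the 4 transporter genes in experiment 2 in unactivated naive cells and at 18, 30, 48 and 72 h, with the high concentration left of the low one; points are libraries and bars group means, on a log axis except for Slc16a1. From 48 h on, the high libraries of Slc2a1, Slc2a3 and Slc16a3 lie well above the low ones, and Slc16a1 stays under 3 CPM.

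Slc2a1, the GLUT1 gene, climbed over the first 48 h at the high concentration and stayed near its 18 h level at the low one. The high libraries had 75.6, 108 and 101 CPM at 30 h, 263, 250 and 245 CPM at 48 h, and 194, 242 and 224 CPM at 72 h. The low libraries had 70.3, 56.4 and 49.6 CPM at 30 h, 49.5, 47.2 and 64.7 CPM at 48 h, and 38.2 and 41.9 CPM at 72 h. From 30 h on, every high library stood above every low library of its time. The difference was 0.71 ± 0.18 at 30 h (adjusted p = 0.00665), 2.22 ± 0.18 at 48 h (adjusted p = 1.58e-14) and 2.45 ± 0.22 at 72 h (adjusted p = 9.71e-13, edgeR), which is 1.63-fold, 4.65-fold and 5.48-fold. Without low replicate 3 the 30 h call was lost (0.61, edgeR adjusted p = 0.0512).
Between neighbouring times, Slc2a1 rose at the high concentration by 0.92 ± 0.19 from 18 to 30 h and by 1.40 ± 0.17 from 30 to 48 h. From 48 to 72 h it did not pass the test there (-0.20 ± 0.17, edgeR adjusted p = 0.417). At the low concentration no step after 18 h passed, with 0.35, -0.11 and -0.43 in time order.

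Slc2a3, the GLUT3 gene, had the largest differences between concentrations among the 3 members at 48 and 72 h. The high libraries had 43.2, 45.0 and 41.9 CPM at 30 h, 322, 348 and 348 CPM at 48 h, and 394, 600 and 502 CPM at 72 h. The low libraries had 31.2, 24.9 and 23.0 CPM at 30 h, 20.3, 21.9 and 29.3 CPM at 48 h, and 23.8 and 33.0 CPM at 72 h. At the low concentration the gene thus kept to the range of its 18 h values or near it, while the high libraries left that range at 30 h and lay at 322 CPM or more from 48 h on. The difference was 0.72 ± 0.20 at 30 h (adjusted p = 0.014), 3.81 ± 0.19 at 48 h (adjusted p = 7.17e-22) and 4.13 ± 0.23 at 72 h (adjusted p = 1.55e-19, edgeR), which is 1.65-fold, 14.1-fold and 17.5-fold. The 30 h call was lost without low replicate 3 (0.65, edgeR adjusted p = 0.0721) and stood at an adjusted p of 0.05 without low replicate 2.
By neighbouring times at the high concentration, Slc2a3 rose by 0.97 ± 0.22 from 18 to 30 h, by 2.97 ± 0.18 from 30 to 48 h and by 0.55 ± 0.16 from 48 to 72 h (edgeR adjusted p = 0.00802). The last of these was lost without high replicate 2 of 72 h (0.40, edgeR adjusted p = 0.0973). No step after 18 h passed at the low concentration, with 0.21, -0.12 and 0.24 in time order.

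Slc16a3, the MCT4 gene, had the largest difference of the 3 at 30 h. The high libraries had 158, 159 and 137 CPM at 30 h, 538, 472 and 352 CPM at 48 h, and 291, 331 and 353 CPM at 72 h. The low libraries had 21.0, 18.2 and 19.5 CPM at 30 h, 49.5, 34.0 and 30.5 CPM at 48 h, and 54.4 and 52.5 CPM at 72 h. The low libraries of neighbouring times did not overlap, with the later ones above, and all stayed below every high library from 30 h on. The difference was 2.94 ± 0.25 at 30 h (adjusted p = 1.03e-11), 3.58 ± 0.24 at 48 h (adjusted p = 6.36e-16) and 2.60 ± 0.27 at 72 h (adjusted p = 5.03e-10, edgeR), which is 7.70-fold, 12.0-fold and 6.08-fold.
At the high concentration Slc16a3 rose by 3.59 ± 0.29 from 18 to 30 h and by 1.58 ± 0.21 from 30 to 48 h, and the step to 72 h did not pass (-0.48 ± 0.21, edgeR adjusted p = 0.0887). That step passed as a fall without high replicate 3 of 48 h (-0.64), and its sign turned with the second title number as a term (0.09, adjusted p = 0.861 in edgeR). At the low concentration the step from 30 to 48 h passed (0.95 ± 0.27, edgeR adjusted p = 0.019). That call was lost without low replicate 1 of 48 h (0.74) or without replicate 2 or 3 of 30 h (0.93 and 0.97). The low steps from 18 to 30 h and from 48 to 72 h were 0.66 and 0.50 and did not pass.

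Set against all genes, 3 of 3 members rose at the high concentration from 18 to 30 h (10.5% of genes called higher) and from 30 to 48 h (16.7%), and 1 of 3 from 48 to 72 h (11.5%). At the low concentration 0 of 3 passed from 18 to 30 h (11.7% called in either direction; no member under an unadjusted p of 0.05 in edgeR, and 0 calls with DESeq2), 1 of 3 rose from 30 to 48 h (5.73% called higher), and 0 of 3 passed from 48 to 72 h (25.8% called in either direction). In that last step Slc2a1 had an unadjusted p of 0.05. Steps that share a time share libraries, so they are given side by side and not compared.

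**Figure D2:**
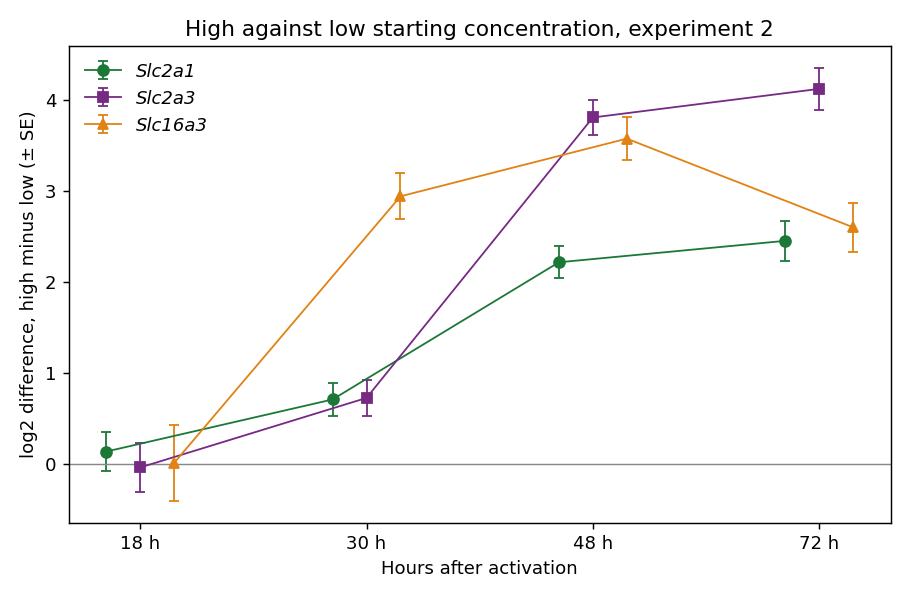
Log2 difference between the high and low concentration, with SE, for Slc2a1, Slc2a3 and Slc16a3 at 18, 30, 48 and 72 h after activation. All 3 genes sit at 0 within their SE at 18 h, Slc16a3 reaches 2.94 at 30 h, and Slc2a3 reaches 4.13 at 72 h.

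The change in the difference between high and low from time to time was tested for each gene and interval on its own. Slc16a3 widened between 18 and 30 h, by 2.94 ± 0.51 (edgeR adjusted p = 0.000963), where 0.379% of genes were called in that direction. Slc2a1 and Slc2a3 changed there by 0.57 ± 0.28 and 0.77 ± 0.33, which did not pass (edgeR adjusted p = 0.367 and 0.295). Between 30 and 48 h it was Slc2a1 and Slc2a3 that widened, by 1.51 ± 0.25 and 3.09 ± 0.28 (edgeR adjusted p = 2.35e-05 and 6.67e-12), where 6.22% of genes were called in that direction. Slc16a3 changed by 0.64 ± 0.35 in that interval (edgeR adjusted p = 0.24). Between 48 and 72 h none of the 3 passed, where 12.6% of genes were called; Slc16a3 came nearest with -0.98 ± 0.34 (edgeR adjusted p = 0.052), and passed without high replicate 3 (-1.12) or low replicate 1 (-1.20) of 48 h. With the second title number as a term it was -0.06 (edgeR adjusted p = 0.966). DESeq2 called none of the 3 there. Whether the genes or the intervals differ from each other in these changes was not tested.

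Second title numbers run with time and, at 48 and 72 h, with concentration. At 48 h they also run with the CD62L sorts. The high against low comparisons at 18 and 30 h lie within a single number. The steps from 18 to 30 h lie wholly between numbers, and with the number as a term, which rests on the other groups, the high steps were 1.15 for Slc2a1, 0.94 for Slc2a3 and 3.03 for Slc16a3, all past edgeR's test. The low step of Slc16a3 was 0.09 with that term. At 48 h the high libraries all carry number 2 and 2 of the 3 low libraries number 1. Against the low library with number 2 alone, the 48 h differences were 2.29 for Slc2a1, 4.00 for Slc2a3 and 3.14 for Slc16a3, all past edgeR's test. With the number as a term in the fit, which rests on other groups for 72 h, the 72 h differences were 2.23, 4.16 and 3.17 in the same order and again past the test. At 48 h they were 2.37, 3.79 and 3.23. The same term ended the call of Slc2a3 from 48 to 72 h at the high concentration (0.59, edgeR adjusted p = 0.0564) and no other call of the 3 members in the 60 results it could be fitted to.

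The balance between the glucose carrier genes also moved. The log2 ratio of Slc2a3 to Slc2a1 (CPM + 1) averaged -1.13, -1.10, 0.43 and 1.16 at the high concentration at 18, 30, 48 and 72 h, against -0.91, -1.12, -1.15 and -0.50 at the low one and -0.44 in naive cells. At 18 and 30 h the concentrations overlapped. At 48 h the high libraries spanned 0.29 to 0.51 and the low ones -1.24 to -1.08, and at 72 h the high libraries spanned 1.02 to 1.31 and the low ones -0.66 to -0.33. Averaged over the 4 times, the ratio was 0.76 higher at the high concentration (exact two-sided permutation of libraries within times, p = 0.00696, Benjamini-Hochberg adjusted over 6 ratio tests p = 0.0209). This permutation had 80000 arrangements. The ratio compares groups and says nothing of which gene has more transcripts.

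**Figure D3:**
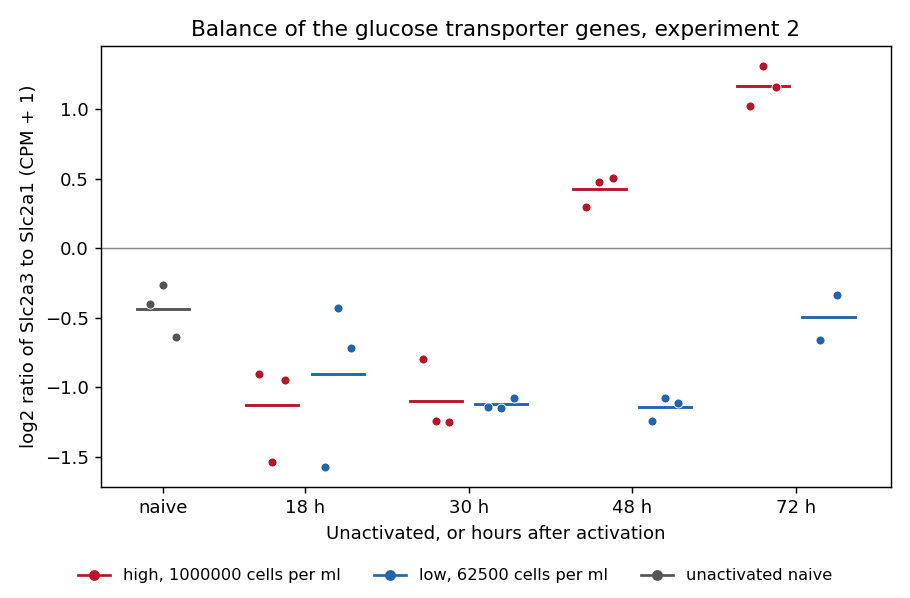
Log2 ratio of Slc2a3 to Slc2a1, each as CPM + 1, in naive cells and by hours after activation in experiment 2, with the high concentration left of the low one; points are libraries and bars group means. The high libraries lie above 0 at 48 and 72 h, and every other library lies below it.

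Slc16a1, the MCT1 gene, could not be followed in experiment 2. It had 27 counts in all over the 38 libraries, at most 6 in a library and 0 in 24 of them, and fell below the low-count filter. The counts by group were 2, 10, 1 and 0 at the high concentration at 18, 30, 48 and 72 h, against 2, 5, 0 and 0 at the low one and 0 in naive cells. In naive cells a sum of 0 allows up to 3 counts over the group, 0.521 CPM of their library totals. In experiment 1 the same symbol had 1627 counts over 18 libraries and passed the filter. Other symbols also differ between the tables, in both directions: Eno1 had 3976 counts in experiment 1 and 0 in experiment 2, and Pfkp 5814 and 21, while Gapdh had 431 and 26567, and Cd2 9 and 27333. Per library, the share of ribosomal protein genes was 0.562% to 1.09% in experiment 1, against 20.9% to 37.7% for experiment 2. These were picked after their values were seen, and the cause of the gap was not tested. Because Slc16a1 is near 0, the log2 ratio of Slc16a3 to Slc16a1 in experiment 2 is little more than the Slc16a3 level; it was 2.02 higher at the high concentration (exact permutation, adjusted p = 0.00278).

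Over the 13 groups of experiment 2, the order of levels was much alike for the 3 measurable genes, with naive cells lowest. For Slc2a1 the naive mean of 22.2 CPM was followed by the low groups and the high group at 18 h, between 40.0 and 58.7 CPM, whose neighbours in the order all overlapped. Above them stood the high group at 30 h at 94.8 CPM and 3 CD62L sorts between 98.7 and 117 CPM, again overlapping in sequence, then CD62L positive cells at 72 h at 154 CPM. The high groups at 72 and 48 h came last with 220 and 252 CPM, neither overlapping the group below it. For Slc2a3 the naive mean of 16.1 CPM and the 5 groups above it, up to 28.4 CPM, overlapped in sequence. The high group at 30 h and both sorts at 48 h lay between 43.3 and 46.0 CPM. The sorts at 72 h followed with 69.5 CPM in CD62L negative and 112 CPM in CD62L positive cells, and the high groups with 339 CPM at 48 h and 499 CPM at 72 h stood apart from all. For Slc16a3 the naive mean of 1.83 CPM, the 18 h groups at 12.1 and 12.5 CPM, and the low groups at 19.6, 38 and 53.5 CPM for 30, 48 and 72 h made a ladder in which only the 18 h groups overlapped each other. The high group at 30 h and 3 sorts lay between 142 and 153 CPM, CD62L positive cells at 72 h at 235 CPM, and the high groups at 72 and 48 h at 325 and 454 CPM.
At 48 and 72 h the sorted cells, which started at the intermediate 250000 cells per ml, had group means between those of the high and the low concentration for all 3 genes. They differ from the concentration groups also in their CD44 gate, so no test was made.

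The genes that partner, regulate or accompany these carriers were counted from lists. Of the MCT chaperones, which bring the lactate carriers to the membrane, Bsg (basigin) averaged 522 CPM in high and 339 CPM in low cultures at 48 h (0.62 ± 0.18, edgeR adjusted p = 0.00706) and 448 against 238 CPM at 72 h (0.91 ± 0.21, adjusted p = 0.000721). Emb (embigin) was lower at the high concentration at 48 h with 29.2 against 76.8 CPM (-1.34 ± 0.25, edgeR adjusted p = 5.09e-05) and did not differ past the test at 72 h. Among other Slc2a genes 3 of 10 were tested. Slc2a6 was lower at the high concentration at 30 h (-1.73 ± 0.53, edgeR adjusted p = 0.0304) and 48 h (-1.74 ± 0.44, adjusted p = 0.00226), with 1.78 and 5.02 CPM in high and 6.79 and 16.3 CPM in low cultures. Slc2a8 and Slc2a9 passed at no time. Among other Slc16a genes 4 of 12 were tested (Slc16a5, Slc16a6, Slc16a10 and Slc16a13), and none passed between concentrations at any time.

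Regulators moved mostly at 48 and 72 h. Of 11 tested, none passed at 18 or 30 h, 4 were higher at the high concentration at 48 h, and 7 were higher and 1 lower at 72 h. Txnip, whose product drives GLUT1 off the cell surface, averaged 162 CPM in high and 41.2 CPM in low cultures at 48 h (1.97 ± 0.22) and 354 against 104 CPM at 72 h (1.76 ± 0.24). Egln3, a prolyl hydroxylase of the HIF pathway that is itself induced by HIF, averaged 188 CPM in high and 7.81 CPM in low cultures at 48 h (4.58 ± 0.22) and 141 against 4.88 CPM at 72 h (4.84 ± 0.30). Egln1 and Vhl, which mark HIF for destruction, were also higher at both times, by 1.51 and 0.92 at 48 h and by 1.84 and 1.08 at 72 h. Myc was higher at 72 h alone (1.20 ± 0.26, edgeR adjusted p = 0.000462), as were Epas1 (2.70) and Mlxip (1.06), and Mlx was lower (-0.58). At 72 h the high libraries all carry second title number 1 and the low ones number 2. These 72 h values, and those of the chaperones and gene lists, are from the fit without that number as a term. With it, 1531 of all genes were called at 72 h in place of 2447. Hif1a, Arnt and Hif1an passed at none of the 4 times; Hif1a averaged 31.9 CPM in high and 32.7 CPM in low cultures at 48 h.

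In the same comparisons 0.725%, 3.93%, 12% and 13.5% of all genes were called lower at 18, 30, 48 and 72 h, beside the shares called higher given above. Of 12 tested glycolytic enzyme genes, 0, 5, 11 and 10 were higher at the high concentration at 18, 30, 48 and 72 h, with median differences of -0.02, 0.52, 1.15 and 1.47. The medians of all genes lay between -0.03 and 0.04. Eno3, singled out after its values were seen, was lower at 30 and 48 h (-0.70 and -1.96). Of 15 tested hypoxia-induced genes, 0, 6, 14 and 13 were higher, with medians of -0.05, 0.75, 2.19 and 3.12, and Ddit4 was lower at 18 h (-0.88). Of 9 tested amino acid transporters, 0, 1, 3 and 0 were higher and 0, 0, 2 and 1 lower over the same times, with medians between -0.01 and 0.16. Of 9 tested pyruvate and lactate enzymes, 0, 1, 2 and 2 were higher and 0, 0, 2 and 1 lower. Ldha, the lactate dehydrogenase subunit and the gene higher at 30 h, rose by 0.50 at 30 h, 0.54 at 48 h and 0.87 at 72 h at the high over the low concentration.

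Experiment 1 measured all 4 members at 250000 cells per ml. Slc2a1 had 304, 251 and 257 CPM in CD62L positive and 233, 238 and 241 CPM in CD62L negative cells at 48 h, against 109, 80.6 and 83.9 CPM in naive cells. Every activated library exceeded every naive one, and the rise was 1.66 ± 0.21 in CD62L positive and 1.47 ± 0.21 in CD62L negative cells. Slc16a3 had 319, 333 and 322 CPM in CD62L positive and 292, 266 and 288 CPM in CD62L negative cells, against 62.1, 21.2 and 37.3 CPM in naive cells, a rise of 3.25 ± 0.26 and 3.05 ± 0.26. Slc16a1 had 164, 148 and 158 CPM in CD62L positive and 195, 187 and 166 CPM in CD62L negative cells, against 15.5, 8.49 and 6.22 CPM in naive cells, which rest on 1, 2 and 2 counts. Its differences were the largest of the 4, 4.26 ± 0.37 and 4.48 ± 0.36 (edgeR adjusted p = 5.69e-12 and 4.98e-13). Slc2a3 did not pass: it had 67.0, 72.7 and 98.1 CPM in CD62L positive and 72.2, 74.6 and 78.2 CPM in CD62L negative cells, against 46.6, 93.4 and 71.5 CPM in naive cells (0.05 ± 0.27 and -0.03 ± 0.26). So 3 of 4 members were higher at 48 h in either sort, where 28.2% and 30.7% of genes were called higher in CD62L positive and negative cells.

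Unactivated mature cells differed from naive cells in 1 of the 4 members, where 7.82% of genes were called higher. Slc16a1 had 30.8, 26.5 and 29.4 CPM in mature cells, against the naive values above (1.82 ± 0.52, edgeR adjusted p = 0.014). The groups did not overlap. In edgeR the call was lost without naive replicate 2 (1.88, adjusted p = 0.0655) or replicate 3 (1.53, adjusted p = 0.166). Slc2a1, Slc2a3 and Slc16a3 did not pass (-0.33, 0.27 and -0.87; edgeR adjusted p = 0.404, 0.54 and 0.141).
All 5 B cell and all 5 myeloid markers had counts in both unactivated groups. B cell markers summed to 523 to 575 CPM in mature and 745 to 1331 CPM in naive cells, against 5.37 to 19.3 CPM in the activated sorts. Myeloid markers summed to 214 to 228 CPM in mature and 512 to 1154 CPM in naive cells, against 6.19 to 63.7 CPM in the activated sorts, and red cell markers reached 49.0 CPM in mature and 574 CPM in naive cells, against 72.9 CPM in the activated sorts. CD8 and NK cell markers summed to 181 to 200 CPM in mature and 109 to 318 CPM in naive cells, against 12.3 to 53.6 CPM in the activated sorts, and platelet markers reached at most 36.5 CPM. Their part in every comparison with these naive cells was not tested.

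**Figure D4:**
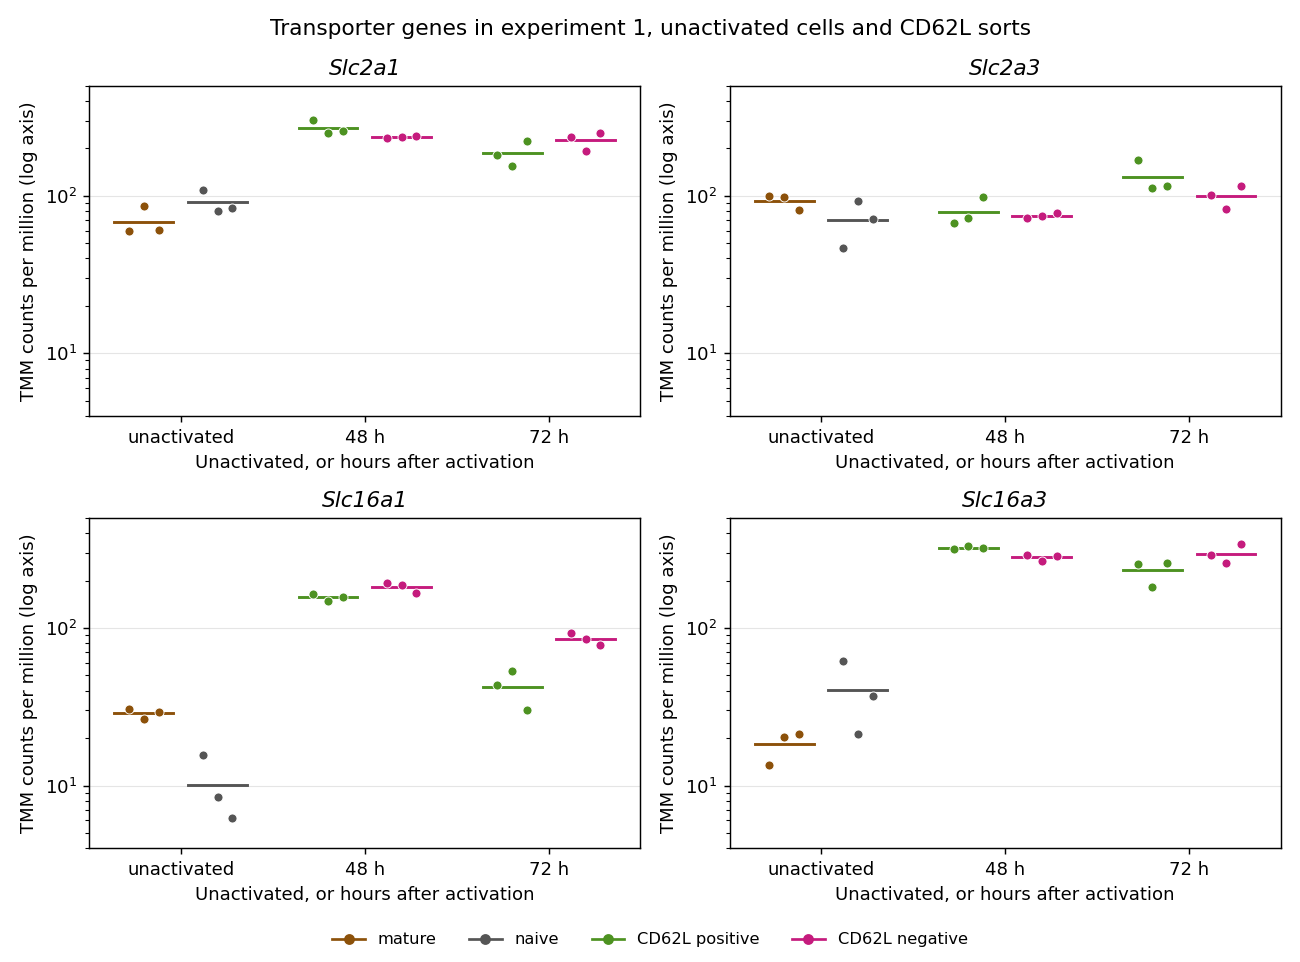
TMM-scaled CPM (log axis) of the 4 transporter genes in experiment 1, with mature left of naive unactivated cells and CD62L positive left of CD62L negative cells at 48 and 72 h; points are libraries and bars group means. Slc16a1 lies between 148 and 195 CPM at 48 h and between 30.0 and 93.7 CPM at 72 h. Slc2a3 lies between 67.0 and 98.1 CPM at 48 h and between 82.1 and 169 CPM at 72 h. Within each sort, the Slc2a3 libraries of 48 and 72 h do not overlap.

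CD62L positive cells keep the lymph node homing receptor of naive and central memory cells, and the sorts ask whether the carriers differ between these cells and CD62L negative ones. At 48 h they did not differ past the test in either experiment. In experiment 1 the differences were 0.19 for Slc2a1, 0.08 for Slc2a3, -0.22 for Slc16a1 and 0.21 for Slc16a3, with SE of 0.14 to 0.19, where 6.51% of genes were called. In experiment 2, Slc2a1 had 106, 101 and 88.8 CPM in CD62L positive and 135, 106 and 92.9 CPM in CD62L negative cells. Slc2a3 had 43.7, 39.8 and 47.6 CPM in CD62L positive and 35.6, 54.1 and 48.4 CPM in CD62L negative cells. Slc16a3 had 162, 158 and 111 CPM in CD62L positive and 82.4, 141 and 203 CPM in CD62L negative cells. The sorts overlapped for all 3 genes, and CD62L negative cells had the wider spread. CD62L negative replicates 2 and 3 carry second title number 2, and the other libraries of these sorts carry number 1. The differences were -0.17 for Slc2a1, -0.09 for Slc2a3 and 0.01 for Slc16a3, with SE of 0.17 to 0.21, where 14.5% of genes were called. No unadjusted edgeR p was under 0.05 in these 7 tests, and DESeq2 called none either. With the second title number as a term, the 48 h differences of experiment 2 were -0.31 for Slc2a1, -0.06 for Slc2a3 and 0.44 for Slc16a3. None of them passed edgeR's test.

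At 72 h each experiment had 1 member past the test, and not the same one. In experiment 1, Slc16a1 had 43.3, 53.1 and 30.0 CPM in CD62L positive cells, against 93.7, 84.9 and 77.8 CPM in CD62L negative cells. The groups did not overlap, and the gene was lower in CD62L positive cells by -0.96 ± 0.18 (edgeR adjusted p = 0.000222), where 9.35% of genes were called lower. With the replicate number as a block it was -0.97 (edgeR adjusted p = 0.000234). Slc2a3 was at 169, 111 and 116 CPM in CD62L positive and 101, 82.1 and 115 CPM in CD62L negative cells (0.42 ± 0.18, edgeR adjusted p = 0.0869). The sorts overlapped by a single CD62L negative library at the bottom of the CD62L positive range. Slc2a1 had 181, 155 and 223 CPM in CD62L positive and 238, 194 and 249 CPM in CD62L negative cells, and Slc16a3 had 257, 183 and 260 CPM in CD62L positive and 292, 260 and 341 CPM in CD62L negative cells. Slc2a1 overlapped, and for Slc16a3 the lowest CD62L negative and the highest CD62L positive library lay side by side. Slc2a1 and Slc16a3 had differences of -0.31 ± 0.15 and -0.37 ± 0.14 (edgeR adjusted p = 0.145 and 0.0727). Without CD62L positive replicate 3 both passed as lower (-0.48 and -0.48), and Slc16a3 passed also without CD62L positive replicate 1 (-0.51) or CD62L negative replicate 2 (-0.50). Slc16a3 passed as lower with relative log expression scaling (-0.39), library totals in place of TMM (-0.44) or DESeq2 (-0.39) too.
Markers of other cells were higher in the same CD62L positive libraries. Myeloid markers summed to 42.0 to 63.7 CPM in CD62L positive and 6.19 to 21.1 CPM in CD62L negative cells, CD8 and NK markers to 34.4 to 53.6 against 13.1 to 17.1 CPM, red cell markers to 33.1 to 72.9 against 10.6 to 32.0 CPM, and B cell markers to 12.7 to 19.3 against 8.21 to 13.3 CPM. In each of these lists 1 tested marker was called higher, as were 4 of 5 CD4 T cell markers, and none was called lower. Their part in the Slc16a1 difference was not tested.
In experiment 2, Slc2a3 had 99.2, 126 and 110 CPM in CD62L positive cells, against 62.7, 70.5 and 75.4 CPM in CD62L negative cells at 72 h. In these cells CD8 and NK markers summed to 25.3 to 32.2 CPM in CD62L positive and 13.1 to 21.1 CPM in CD62L negative cells and myeloid markers to 4.10 to 25.3 against 0 to 0.883 CPM, with none called and their part not tested. The Slc2a3 values did not overlap either, and the gene was higher in CD62L positive cells by 0.68 ± 0.18 (edgeR adjusted p = 0.0362), where 0.682% of genes were called higher. The call was lost without CD62L positive replicate 2 (0.59) or 3 (0.69) and without any of the CD62L negative replicates 1, 2 and 3 (0.61, 0.69 and 0.75), with adjusted p between 0.0525 and 0.181. Slc2a1 had 144, 155 and 162 CPM in CD62L positive and 132, 108 and 111 CPM in CD62L negative cells, and Slc16a3 had 293, 199 and 214 CPM in CD62L positive and 178, 122 and 160 CPM in CD62L negative cells. Every CD62L positive library lay above every CD62L negative one for both genes, but neither passed. Slc2a1 and Slc16a3 had 0.39 ± 0.17 and 0.62 ± 0.22 (edgeR adjusted p = 0.319 and 0.152), so their signs were opposite to those of experiment 1. None of these 4 values passed edgeR's test with TMM scaling and all libraries, and the experiments were not tested against each other. The change of the CD62L difference from 48 to 72 h passed for no member in either experiment. In experiment 1 all but Slc2a3 had an unadjusted p under 0.05 (Slc16a1 -0.75 ± 0.24, edgeR adjusted p = 0.0978), and Slc16a1 passed with DESeq2 or without CD62L positive replicate 2 of 72 h; in experiment 2 Slc2a1 and Slc2a3 had one, and DESeq2 called none. Of all genes, 1.89% were called in experiment 1 and 1.3% in experiment 2.

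**Figure D5:**
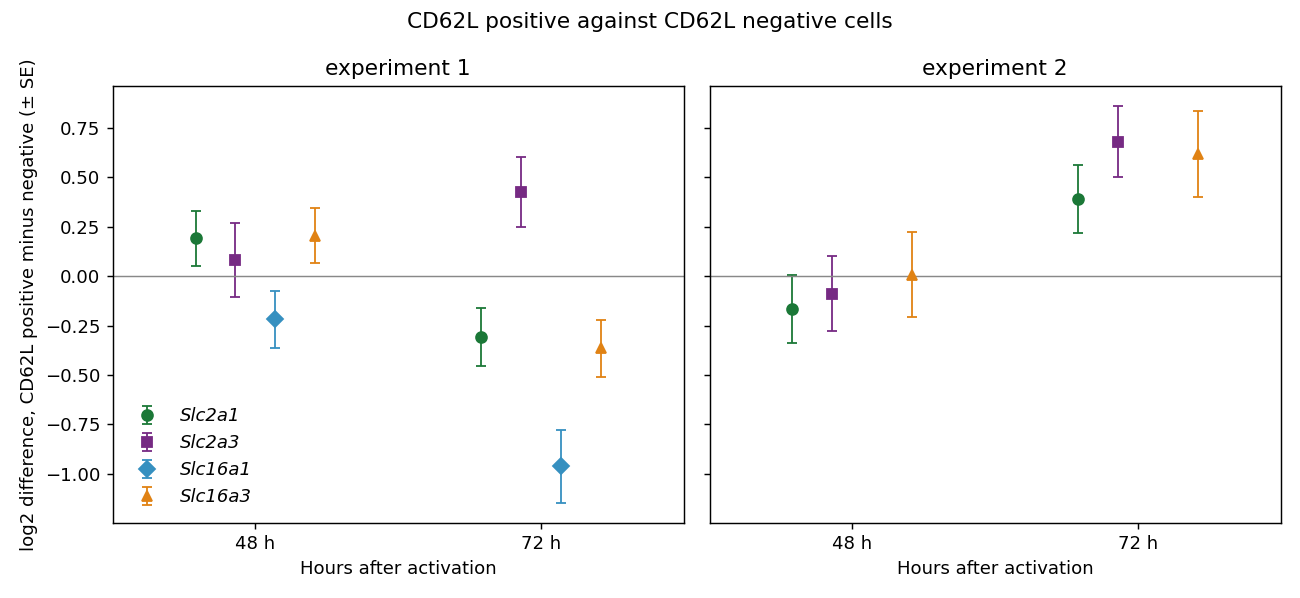
Log2 difference between CD62L positive and CD62L negative cells, with SE, at 48 and 72 h in experiment 1 (left) and experiment 2 (right); Slc16a1 was not measurable in experiment 2. Slc16a1 lies at -0.96 at 72 h in experiment 1 and Slc2a3 at 0.68 at 72 h in experiment 2, and the other values did not pass the test.

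Between 48 and 72 h Slc16a1 fell in both sorts of experiment 1, by -1.83 ± 0.18 in CD62L positive and -1.09 ± 0.15 in CD62L negative cells (edgeR adjusted p = 3.19e-10 and 2.57e-07). In CD62L positive cells of experiment 1 all 4 members passed, where 41.6% of genes were called: Slc2a1 fell by -0.56 ± 0.15, Slc16a3 fell by -0.49 ± 0.15 and Slc2a3 rose by 0.74 ± 0.19. The rise of Slc2a3 lost its call without 72 h replicate 1 (0.44, edgeR adjusted p = 0.095). In CD62L negative cells Slc16a1 alone passed, where 36.5% were called, and Slc2a1, Slc2a3 and Slc16a3 had -0.06, 0.40 and 0.08; Slc2a3 passed without 72 h replicate 2 (0.50).
In CD62L positive cells of experiment 2 all 3 tested members rose, where 11.9% of genes were called higher: Slc2a1 by 0.64 ± 0.17, Slc2a3 by 1.35 ± 0.19 and Slc16a3 by 0.71 ± 0.21 (edgeR adjusted p = 0.00435, 1.33e-07 and 0.0112). Slc16a3 lost its call without 48 h replicate 3 (0.55) or 72 h replicate 1 (0.53). In CD62L negative cells Slc2a3 rose by 0.58 ± 0.19 (edgeR adjusted p = 0.017), where 12.5% were called higher, and lost its call without 48 h replicate 1 (0.44) or 72 h replicate 3 (0.51). Slc2a1 and Slc16a3 had 0.08 and 0.10 there. Slc2a3 was the member that passed as higher at 72 h in CD62L positive cells of both experiments and at the high concentration, while Slc2a1 and Slc16a3 passed in opposite directions in CD62L positive cells of experiments 1 and 2. The CD44 gate was used for the sorts of experiment 2 alone, and the experiments also differ in depth and in the share of ribosomal protein genes. The part of each in these directions was not tested.

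The lactate carrier ratio could be read in experiment 1 alone. The log2 ratio of Slc16a3 to Slc16a1 averaged 1.05 in CD62L positive and 0.63 in CD62L negative cells at 48 h, and 2.46 and 1.78 at 72 h. At 48 h the sorts did not overlap, and at 72 h they did. Over both times it was 0.55 higher in CD62L positive cells (exact two-sided permutation within times, p = 0.02, adjusted p = 0.04). That call was lost without each of 10 of the 12 libraries in turn, with differences between 0.396 and 0.723 over all 12. The permutation did not keep same-numbered libraries as pairs, though they deviated together at 72 h over the genes tested. The ratio of Slc2a3 to Slc2a1 differed by 0.28 in experiment 1 and 0.19 in experiment 2 between the sorts (exact permutation, adjusted p = 0.24 and 0.34); the smallest p that the 400 arrangements allow is 0.005.

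As a description, the tested genes whose log2 CPM ran most alike with each member were listed by Pearson correlation over libraries, among tested genes at or above the median abundance. In experiment 2 (38 libraries) Slc2a1 ran closest with the glycolytic enzyme gene Gpi1 (r = 0.931), then Fdps, Prelid2, Pgm2 and Slc16a3 (0.917). Slc2a3 ran closest with the hypoxia-induced Ndrg1 (0.933), then Gpi1, Avpi1, Pgm2 and Bnip3. Slc16a3 ran closest with the fatty acid desaturase gene Scd2 (0.954), then Prelid2, the sterol pathway gene Fdps, Prelid1 and Gpi1. In experiment 1 (18 libraries) Slc2a1 ran closest with the pyruvate kinase gene Pkm (0.982) and Slc16a3 with Slc2a1 (0.976), Pkm, Il2ra, Tpi1 and Pim2. Slc16a1 ran with a different set, Strap (0.984), Mrpl20, Srsf3, Immt and Dlat. Slc2a3 had no close companion there, with Gm8369 highest at 0.83. The libraries share groups, times and depth, and these values carry no test.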

How the data were processed

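RNA of sorted or cultured CD4 T cells was read by 3' end sequencing with unique molecular identifiers, per the labels' protocols, and the deposited files hold raw counts per gene symbol, with no normalization by the authors visible in the values. No source used here says whether reads with the same identifier were collapsed, or whether counting used strand. The submitters' processing notes name STAR 2.5.2b, HISAT 0.1.5, HTSeq 0.9.1, FastQC 0.11.7, bcl2fastq 2.17.1.14 and the build mm9. Each table was analysed on its own.

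Counts were scaled by TMM and tested with edgeR 4.0.16 (quasi-likelihood, robust; R 4.3.3), 1 coefficient per group and all groups of an experiment in a fit. Genes passed filterByExpr with a minimum count of 10, leaving 8961 in experiment 1 and 9239 in experiment 2, with 12 and 25 residual degrees of freedom. P-values were adjusted by Benjamini and Hochberg with a threshold of 0.05. Log2 ratios of CPM + 1 were tested by exact permutation of libraries within times (Python 3.11.15, SciPy 1.17.1), and likeness used log2 CPM with a prior count of 2. Zero floors cover counting error only. The fits were tested on simulated data. No replicate pair held identical values.

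Alternatives were relative log expression scaling, library totals, no filter, DESeq2 1.42.0, the compared groups alone, the replicate block, second title numbers and leaving out each library. The genes named were the 4 members, the tested chaperones, other Slc2a and Slc16a genes and regulators, and the 5 genes most like each member; other genes were named after their values were seen. The members and lists were chosen with earlier results of these data known. Same-numbered libraries deviated together (every correlation over 0.1) in 1 of 7 comparisons of experiment 1, CD62L positive against negative at 72 h (0.164, 0.176 and 0.398), and in 0 of 16 of experiment 2. Elsewhere, and in the ratio permutations, the numbers were not taken as pairs.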

Additional observations from a re-analysis of the deposited data

Results flagged for a closer look

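The difference between the high and low concentrations changed from one time to the next by edgeR's test of the change itself in 3 cases of experiment 2. Slc16a3 changed by 2.935 from 18 to 30 h, with 12.1 CPM at the high and 12.5 CPM at the low concentration at 18 h, and 151 and 19.6 CPM at 30 h. Slc2a1 changed by 1.51 from 30 to 48 h, with 94.8 CPM at the high and 58.7 CPM at the low concentration at 30 h, and 252 and 53.8 CPM at 48 h. Slc2a3 changed by 3.087 from 30 to 48 h, with 43.3 CPM at the high and 26.4 CPM at the low concentration at 30 h, and 339 and 23.8 CPM at 48 h. Groups of 2 or 3 libraries are too small for a search for single outlying libraries, so none was made.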

How the results depend on the processing

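No member changed sign while past the test under any alternative. With the replicate block, 3 of 3 members were higher at the high concentration at 30, 48 and 72 h, and none of the 92 member results changed its call. DESeq2 left 90 of 92 calls as they were and gained 2, and relative log expression scaling left 91 and gained 1. Leaving out 1 library kept 608 of 639 calls, lost 19 and gained 12; with 1 low library left at 72 h, its spread is taken from the rest of the fit. Counts of members past the test moved as follows.

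In experiment 1, CD62L positive against negative at 72 h had 1, and 2 with relative log expression scaling, library totals or DESeq2 (1 to 3 without a library). The change of that difference from 48 h had 0, and 1 with DESeq2 (0 to 1 without a library). CD62L negative cells at 72 against 48 h had 1, and 2 with the compared groups alone (1 to 2 without a library). Mature against naive had 1 (0 to 1 without a library). In experiment 2, 72 against 48 h at the high concentration had 1, 2 with library totals or no filter, and 0 with the title number as a term (0 to 2 without a library). At the low concentration, 48 against 30 h had 1 (0 to 1 without a library). High against low at 30 h had 3 (1 to 3 without a library). The change of high minus low from 48 to 72 h had 0, and 1 with library totals, no filter or the compared groups alone (0 to 1 without a library). CD62L positive against negative at 72 h had 1, and 0 with no filter (0 to 1 without a library). CD62L negative cells at 72 against 48 h had 1, and 0 with the compared groups alone (0 to 1 without a library).

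The log2 ratio of Slc16a3 to Slc16a1 between the CD62L sorts was 0.5487 in experiment 1, and 0.3959 to 0.7225 without a library. In experiment 2 it was 0.7691 and did not pass (exact permutation, adjusted p = 0.0675). It passed with a pseudocount of 0.25 CPM (1.372, adjusted p = 0.045) and without CD62L negative replicate 3 of 48 h (0.967) or replicate 1 of 72 h (0.899), over 0.5207 to 0.9667 without a library. Slc16a1 had at most 5 counts over a group in these sorts. The ratio in experiment 2 thus depends on the pseudocount, and nothing about Slc16a1 is read from it. Library totals moved the median of all genes by 0.23 for high and 0.18 for low at 18 h against naive, and Slc2a3 then passed (0.71 and 0.69).

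Over all genes, the title number as a term gave 860 calls in place of 1655 for 30 against 18 h at the high concentration, 1277 in place of 2170 for 72 against 48 h there, 504 in place of 857 for 48 against 30 h at the low one, 1531 in place of 2447 for high against low at 72 h, 296 in place of 1161 for its change from 48 h, and 844 in place of 1341 for the CD62L sorts at 48 h. The compared groups alone gave 455 in place of 173 for high against low at 18 h, 1488 in place of 2397 at 48 h (917 with title number 2 alone), 266 in place of 83 for the change from 18 to 30 h (189 with no filter, 155 with DESeq2), 231 in place of 141 for the CD62L sorts at 72 h (242 with DESeq2), and 1483 in place of 2269 for CD62L negative cells at 72 against 48 h. In experiment 1 the change of the CD62L difference had 169, with 279 for no filter and 364 for DESeq2. The causes were not tested. Depth limits what the shallowest naive library of experiment 1 shows.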
